A study of Rattus norvegicus with 3 samples.

Results

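The cytochrome P450 genes were followed through 2 lists of histone H3K4me2 peaks from rat liver. A gene counted as a member when a peak of either list carried a name that began with Cyp and a digit, Cyp51 excepted. This gave 53 genes of the 12100 gene names in both lists, of which 37 were named in the olanzapine library, 40 in the clozapine library and 24 in both. The names table used here (assembly GRCr8) holds 77 protein-coding Cyp genes with a curated transcript, and all 53 members were among them. The 24 Cyp genes that no peak named were Cyp1b1, Cyp2b2, Cyp2b15, Cyp2c6v1, Cyp2c23, Cyp2c55, Cyp2d2, Cyp2d5, Cyp2g1, Cyp2j10, Cyp2s1, Cyp2t1, Cyp2w1, Cyp4a2, Cyp4a2l1, Cyp4a8, Cyp4f39, Cyp7a1, Cyp11a1, Cyp11b1, Cyp11b2l1, Cyp11b3, Cyp21a1 and Cyp24a1.

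H3K4me2 was profiled by chromatin immunoprecipitation and sequencing (ChIP-seq) in livers from female Sprague-Dawley rats that took an antipsychotic drug by mouth, 12 animals to a group. Olanzapine was given at 3 mg/kg and clozapine at 20 mg/kg, each 2 times a day for 9 weeks. Olanzapine came in a sweet dough pellet, whereas clozapine was soon given by syringe with a plain pellet, because the rats refused the dosed one. One library per drug was analysed, so no value below has a replicate and no test between the drugs was possible. The vehicle group was not analysed here, and a peak is therefore described as present in a library, never as gained or lost with a drug. Read numbers are not part of the lists, and the depth under a peak is therefore unknown. The study's sequencing summary gives far fewer genome-assigned reads for the clozapine library than for the olanzapine library, from similar numbers of clean reads. Drug, animal, route of dosing and depth cannot be told apart.

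The olanzapine list held 7128 peaks and the clozapine list 19449. Of 11 hepatocyte markers, the olanzapine library had a peak in the upstream, 5' UTR, exonic or splicing class at 7 and the clozapine library at 9, among them Alb and Apob in both. For markers of other cells the olanzapine library held 0 of 7 endothelial, 0 of 6 stellate cell, 0 of 6 Kupffer cell, 0 of 5 cholangiocyte and 0 of 4 neutrophil markers in these classes, and the clozapine library 4, 3, 0, 2 and 4 of the same lists. Among all protein-coding genes, 22.7% carried an olanzapine peak of these classes and 14.4% a clozapine peak of them. The clozapine library thus carried such peaks at marker genes of other cell types, and their part in the values below was not tested. Whole liver was used, so a peak cannot be assigned to one cell type.

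Cytochromes P450 are heme enzymes that insert oxygen into drugs, steroids, fatty acids, bile acid precursors and vitamins, and the liver is their main site. Many sit in tandem arrays of near-identical genes. Families 1 to 3 act mainly on drugs and steroids, family 4 on fatty acids, and the remaining families mostly on defined sterols, hormones and vitamins. Dimethylation of histone H3 at lysine 4 marks promoters and enhancers that are active or poised.

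The sequences before the starts of 9 members are printed for the place of their peaks: Cyp1a2, Cyp2e1, Cyp2c12, Cyp27a1 and Cyp3a23/3a1 had exonic peaks in both libraries, and the others, with Cyp27a1 and Cyp3a23/3a1, had an olanzapine peak near their start. Each is the 120 bases before the RefSeq start on assembly GRCr8, whose coordinates differ from those of the peaks. Capitals mark every CG, and the TATA motif TATAAA, searched on both strands (TTTATA on the other), in the last 60 bases.
Cyp1a2, chr8:66978150-66978269, minus strand: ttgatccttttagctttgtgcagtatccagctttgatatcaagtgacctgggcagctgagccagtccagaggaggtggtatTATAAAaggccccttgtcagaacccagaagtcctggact
Cyp2e1, chr1:205269847-205269966, plus strand: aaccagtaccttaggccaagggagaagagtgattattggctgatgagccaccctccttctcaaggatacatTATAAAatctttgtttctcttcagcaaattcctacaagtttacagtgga
Cyp2c12, chr1:248677035-248677154, minus strand: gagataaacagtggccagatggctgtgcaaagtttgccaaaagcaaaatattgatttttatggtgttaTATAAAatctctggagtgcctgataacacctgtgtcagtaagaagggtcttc
Cyp2a1, chr1:91359158-91359277, plus strand: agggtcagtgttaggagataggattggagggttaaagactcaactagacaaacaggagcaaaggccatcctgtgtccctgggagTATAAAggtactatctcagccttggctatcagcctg
Cyp3a23-3a1, chr12:14398804-14398923, minus strand: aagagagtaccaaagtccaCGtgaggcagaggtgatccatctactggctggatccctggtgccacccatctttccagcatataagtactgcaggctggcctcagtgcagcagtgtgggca
Cyp27a1, chr9:83713412-83713531, plus strand: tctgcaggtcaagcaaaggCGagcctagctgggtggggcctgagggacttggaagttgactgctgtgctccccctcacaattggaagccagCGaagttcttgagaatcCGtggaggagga
Cyp8b1, chr8:130457593-130457712, minus strand: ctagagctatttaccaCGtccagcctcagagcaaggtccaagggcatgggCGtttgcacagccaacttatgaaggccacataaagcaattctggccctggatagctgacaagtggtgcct
Cyp4f1, chr7:12672554-12672673, minus strand: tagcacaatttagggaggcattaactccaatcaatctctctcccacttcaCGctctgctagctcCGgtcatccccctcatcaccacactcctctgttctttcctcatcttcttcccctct
Cyp20a1, chr9:69249753-69249872, plus strand: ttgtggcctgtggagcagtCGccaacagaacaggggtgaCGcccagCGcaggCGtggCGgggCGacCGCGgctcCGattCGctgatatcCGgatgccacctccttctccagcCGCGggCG

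The first 4 of these held TATAAA and no CG in the 120 bases, and Cyp20a1 held 14 CG and no TATA motif. Cyp2f4, which also had exonic peaks in both libraries, is not printed. Its 120 bases held 0 CG, with no TATA motif in the last 60. Over the 61 Cyp genes with a RefSeq promoter, 15 (24.6%) held the motif in the 60 bases before the start, against 4.18% of 15104 other genes. The median number of CG in the 250 bases before the start was 3 for Cyp genes and 12 for other genes. Among genes with a peak of the upstream, 5' UTR, exonic or splicing class, the medians were 2 for 20 Cyp genes and 18 for 3550 other genes in the olanzapine library. In the clozapine library they were 1.5 for 12 Cyp genes and 18 for 2151 other genes. Cyp genes with a peak thus had no more CG than Cyp genes at large. A match describes these letters only.

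Members with a peak at the gene were more numerous in the olanzapine library than in the clozapine library. A peak of the upstream, 5' UTR, exonic or splicing class is called here a gene-end or exonic peak. The end meant is the 5' end, so peaks of the 3' UTR and downstream classes are not counted. Such a gene-end or exonic peak was present at 24 of 77 Cyp genes in the olanzapine library (31.2%, 95% Wilson interval 21.9 to 42.2), where 22.7% of 18539 protein-coding genes had one. In the clozapine library it was present at 13 of 77 (16.9%, 10.1 to 26.8), beside 14.4% of all genes. The 6 genes with one in both were Cyp1a2, Cyp2c12, Cyp2e1, Cyp2f4, Cyp3a23/3a1 and Cyp27a1 (7.79% of the 77, beside 5.72% of all genes). The intervals cover the counting of genes only. Counted over peaks longer than 200 bp, the olanzapine library had 23 such Cyp genes and the clozapine library 6, with 3 in both. With a -log10 q of at least 5 the counts were 1, 2 and 0. The share of all genes at these 2 settings was not computed, so these counts cannot be set against it. Peaks of 200 bp or shorter made up 5.32% of the whole olanzapine list and 64.2% of the whole clozapine list.

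With every class but intergenic the order of the libraries was the same. Such a peak was present at 30 Cyp genes in the olanzapine library (39.0%, 28.8 to 50.1), beside 26.7% of all genes, and at 17 in the clozapine library (22.1%, 14.3 to 32.5), beside 28.2%. Both libraries had one at 11 (14.3%), beside 12.0%, and the genes added to the 6 above were Cyp1a1, Cyp2c7, Cyp2d4, Cyp3a2 and Cyp4a3. The olanzapine share of Cyp genes was above that of all genes and the clozapine share below it, and no test of this was run. With intergenic names counted too, 37 Cyp genes (48.1%) were named in the olanzapine library, beside 35.9% of all genes, and 40 (51.9%) in the clozapine library, beside 52.4%. More Cyp genes were named by intergenic peaks alone in the clozapine library than in the olanzapine library, and the same held over all genes.

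**Figure D1:**
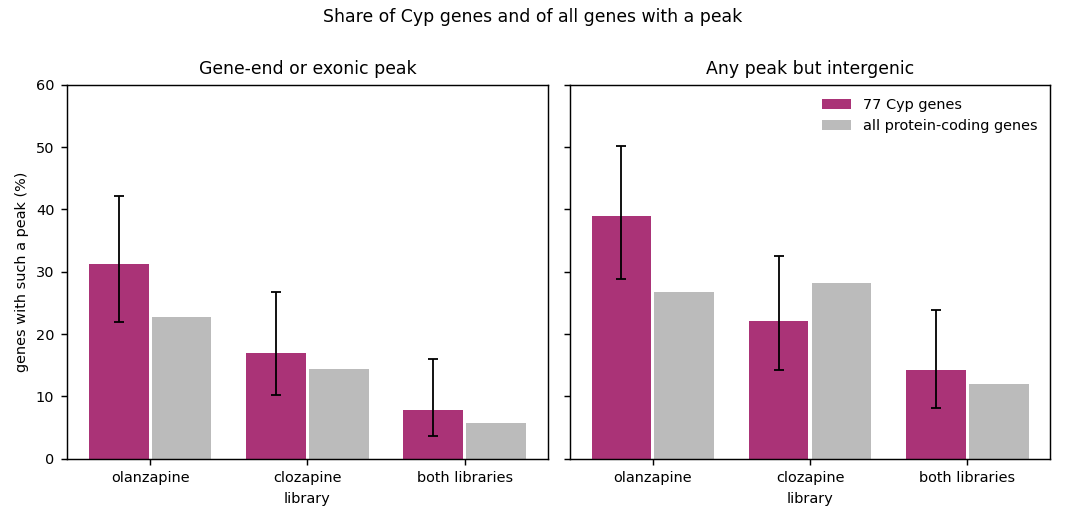
Percent of 77 Cyp genes (left bar of each pair, with 95% Wilson interval) and of 18539 protein-coding genes (right bar) with a gene-end or exonic peak, or with any peak but an intergenic one, in the olanzapine library, the clozapine library and both. The Cyp bar stands above the bar of all genes in the olanzapine library under both rules (31.2% and 39.0%), and below it in the clozapine library only under the wider rule (22.1% against 28.2%).

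**Figure D2:**
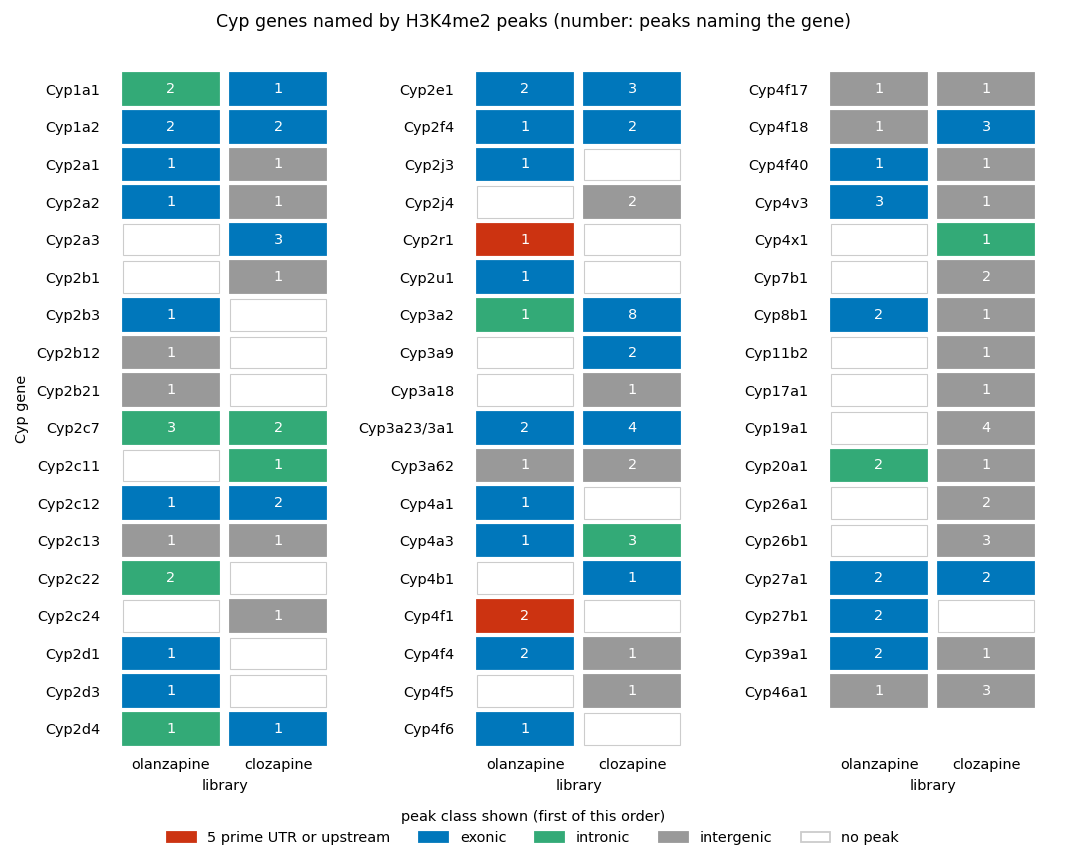
The 53 Cyp genes by library, coloured by the class of their peak nearest to the gene in the order 5' UTR or upstream, exonic, intronic, intergenic, with the number of peaks that name the gene; an open box is no peak. Cyp3a2 had the most peaks of a member in 1 library, 8 in the clozapine library, and the steroid and retinoic acid genes at the lower right were named in the clozapine library alone and by intergenic peaks.

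An intergenic peak carries the names of the genes on either side of it, and a Cyp gene so named lay up to 1001 kb away. Such a name does not assign the peak to that gene. The olanzapine library had 51 peaks that named a Cyp gene, of which 23 were exonic (45.1%, 32.3 to 58.6), 10 intronic (19.6%), 16 intergenic (31.4%) and 2 in the 5' UTR or upstream class (3.92%, 1.08 to 13.2). Over its whole list 41.1% of peaks were exonic, 13.9% intronic, 25.3% intergenic and 18.8% in the 5' UTR or upstream class. The scarcity of the last class among Cyp peaks was the widest gap, and its only members were a 5' UTR peak of Cyp2r1 and an upstream peak of Cyp4f1. The clozapine library had 71 Cyp peaks, of which 18 were exonic (25.4%, 16.7 to 36.6), 14 intronic (19.7%) and 39 intergenic (54.9%, 43.4 to 66.0). Its whole list had 21.1%, 22.9% and 52.2% in these classes. None of the 71 was in the 5' UTR or upstream class (0%, up to 5.13%), which held 0.854% of the list.

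Cyp peaks had the lengths usual for their library. Median lengths were 520 bp for the olanzapine Cyp peaks (interquartile range 266 to 982 bp, full range 196 to 2748 bp), beside 577 bp for the whole list, and 172 bp for the clozapine Cyp peaks (interquartile range 170 to 270 bp, full range 170 to 1893 bp), beside 171 bp. At the shortest length of their list were 4 of 51 Cyp peaks in the olanzapine library (196 bp, 7.84%) and 29 of 71 in the clozapine library (170 bp, 40.8%). The median fold enrichment, the authors' ratio over a background, was 4.27 for the olanzapine Cyp peaks (3.06 to 5.93) and 3.80 for the clozapine ones (2.85 to 8.09), beside 4.30 and 3.78 over the whole lists. In the clozapine library 34 of 71 Cyp peaks (47.9%) had the same fold and the same -log10 p as at least 1 other peak of the list, as did 44.0% of all its peaks. In the olanzapine library this held for 0 of 51, beside 0.884% of all peaks.

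**Figure D3:**
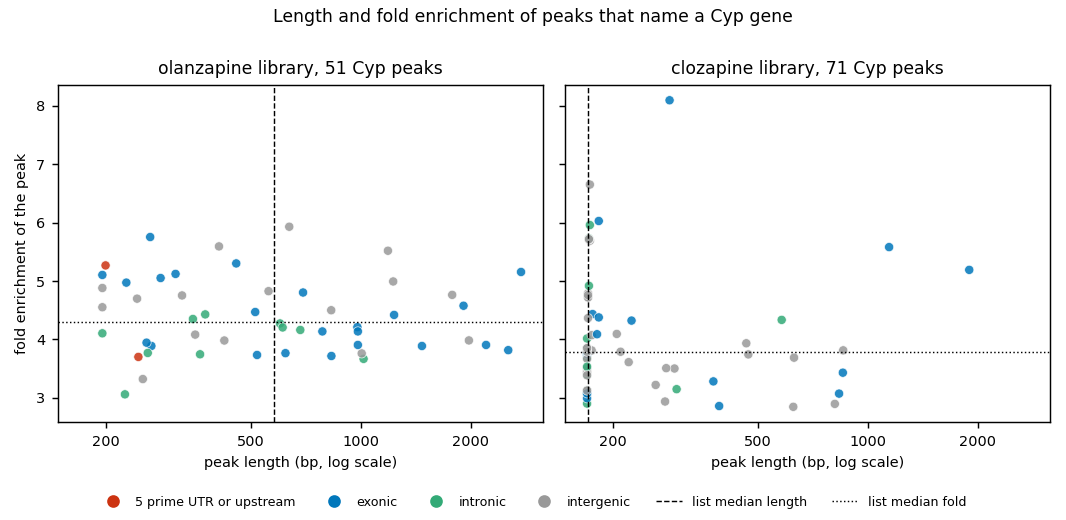
Length (bp, log axis) and fold enrichment of each peak that names a Cyp gene, in the olanzapine library (51 peaks) and the clozapine library (71), coloured by class, with lines at the median length and fold of the whole list. The olanzapine peaks spread from 196 to 2748 bp, while 48 of the clozapine peaks are 200 bp or shorter; the highest clozapine point is an exonic peak of Cyp2a3 at fold 8.09.

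Positions of peaks are those of the lists, on Rnor_6.0. In the Cyp1 family both Cyp1a genes carried peaks in both libraries. Cyp1a2 oxidises caffeine and, in humans, both drugs studied here. Its exonic peak in the olanzapine library was the longest of any member, from 62455298 to 62458045 on chromosome 8 (2748 bp, fold 5.15, -log10 p 7.24). The exonic peak of the clozapine library lay inside it, from 62456754 to 62456934 (181 bp, fold 4.09, -log10 p 5.01). This was the only Cyp peak shared by position between the libraries. An intergenic peak between Csk and Cyp1a2 was present in each library as well, from 62422710 to 62424687 in the olanzapine library (fold 3.98, -log10 p 5.79) and from 62418543 to 62418763 in the clozapine library (fold 3.61, -log10 p 6.31), 3.95 kb apart. Cyp1a1, the enzyme induced by aryl hydrocarbons, had an intronic peak from 62472671 to 62472931 (fold 3.77, -log10 p 4.01) and an intergenic peak on the side of Clk3 from 62482177 to 62483363 (1187 bp, fold 5.52, -log10 p 9.63) in the olanzapine library. Its 1 clozapine peak was exonic, from 62474695 to 62475071 (377 bp, fold 3.28, -log10 p 5.82).

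Cyp2e1, which oxidises ethanol and other small molecules, was covered at different places in its gene. On chromosome 1 the olanzapine library had an exonic peak from 213512211 to 213514414 (2204 bp, fold 3.91, -log10 p 5.17) and an intronic one from 213515510 to 213515856 (347 bp, fold 4.35, -log10 p 5.53). The clozapine library had 3 exonic peaks, from 213516273 to 213517414 (1142 bp, fold 5.58, -log10 p 8.53), 213518200 to 213518382 (183 bp, fold 6.03, -log10 p 8.69) and 213520179 to 213522071 (1893 bp, fold 5.19, -log10 p 9.54). All 3 began to the right of both olanzapine peaks, 417 bp past the nearer one, and none overlapped them. The RefSeq gene is on the plus strand, so the clozapine peaks lay further along the gene.

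The Cyp2a, Cyp2b and Cyp2f genes share a cluster of 783 kb on chromosome 1, in which the olanzapine library had 4 peaks and the clozapine library 5. Cyp2a3, a coumarin hydroxylase of the airways, was named in the clozapine library alone. Its exonic peak from 83657380 to 83657665 had the highest fold and -log10 p of any member (286 bp, fold 8.09, -log10 p 17.4, a -log10 p above 99.2% of the list). A second exonic peak of 853 bp (fold 3.43, -log10 p 6.28) and an intergenic peak of 171 bp shared with Cyp2a1, from 83683849 to 83684019 (fold 4.74, -log10 p 9.17) lay within 27 kb. In the olanzapine library 1 exonic peak of 622 bp, from 83711375 to 83711996, carried the names Cyp2a1 and Cyp2a2, a pair of steroid hydroxylases (fold 3.77, -log10 p 5.37), and in the clozapine library the names of these genes stood on intergenic peaks only. Cyp2b3 had an exonic olanzapine peak of 283 bp from 83163291 to 83163573 (fold 5.05, -log10 p 6.84), and Cyp2b12 and Cyp2b21 shared an intergenic one (fold 4.75). Cyp2f4, known for bioactivation of naphthalene in the lung, had an exonic peak from 83937960 to 83938473 in the olanzapine library (fold 4.47, -log10 p 5.17). Its exonic clozapine peak ran from 83945833 to 83946223 (fold 2.86, -log10 p 4.74), 7.36 kb away. Cyp2b1, the classic gene induced by phenobarbital, was named by 1 clozapine peak between Mtss1 and Cyp2b1 on chromosome 7, from 99152475 to 99152769 (fold 3.50, -log10 p 4.20), whereas the names table places Cyp2b1 on chromosome 1. Its close paralog Cyp2b2 was named by no peak.

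The Cyp2c genes of chromosome 1 include the sex-specific P450s of rat liver. Cyp2c12, the female-specific steroid sulfate hydroxylase, had an exonic peak of 979 bp from 258764403 to 258765381 in the olanzapine library (fold 4.21, -log10 p 6.30). The clozapine library had an exonic peak of 170 bp from 258716673 to 258716842 (fold 3.80, -log10 p 7.06) and an intergenic one shared with Cyp2c24, 397 kb from Cyp2c12 (fold 4.73, -log10 p 9.13). Measured to the end of the gene, the exonic peaks were 54.7 kb from it in the olanzapine library and 6.95 kb in the clozapine library. Cyp2c11, the male-specific steroid hydroxylase, was named in the clozapine library alone, by an intronic peak of 173 bp from 257937125 to 257937297 that also carried the name Hells (fold 5.96, -log10 p 12.0). Cyp2c13, also male-specific, had 1 intergenic peak in each library (fold 4.83 in the olanzapine one, 3.07 in the clozapine one). Cyp2c22, a retinoic acid hydroxylase, had an intronic peak and an intergenic one in the olanzapine library alone, the latter 151 kb from the gene. Cyp2c7, female-predominant, had 2 intronic peaks and an intergenic one in the olanzapine library, the one with the highest -log10 p 1018 bp long from 148117630 to 148118647 (fold 3.67, -log10 p 7.35). Its clozapine peaks were 1 intronic and 1 intergenic peak of 170 bp each. The intergenic Cyp2c7 peaks lay 322 kb from the gene in the olanzapine library and 258 kb in the clozapine library. Of 4 genes listed as female-predominant, 2 had a gene-end or exonic peak in the olanzapine library (Cyp2a1, Cyp2c12) against 2 in the clozapine library (Cyp2c12, Cyp3a9). Of 6 listed as male-predominant, 1 had one in the olanzapine library (Cyp2a2, on the peak it shares with Cyp2a1) against 1 in the clozapine library (Cyp3a2). Over all genes 22.7% had one in the olanzapine list, against 14.4% in the clozapine list.

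The Cyp2d genes of chromosome 7, whose human relative handles many psychiatric drugs, had 3 olanzapine peaks against 1 clozapine peak. A gene-end or exonic olanzapine peak was present at 2 of the 5 Cyp2d genes, and such a clozapine peak at 1. The shares of all genes, 22.7% for olanzapine and 14.4% for clozapine, stand in the same order, and no difference was tested. Cyp2d1, the debrisoquine hydroxylase, had an exonic olanzapine peak from 123629767 to 123630025 (fold 3.95, -log10 p 4.94). Cyp2d3 had an exonic olanzapine peak of 982 bp from 123637517 to 123638498 (fold 3.91, -log10 p 5.72). Neither was named in the clozapine library, and Cyp2d2 was named in neither. Cyp2d4, also known from brain, had an intronic peak of 196 bp from 123607365 to 123607560 in the olanzapine library (fold 4.11, -log10 p 4.55) and an exonic peak of 170 bp from 123603716 to 123603885 in the clozapine library (fold 3.08, -log10 p 4.68).

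The Cyp3a genes, which hydroxylate steroids and many drugs, had more peaks in the clozapine library, whose list is also the longer one (19449 peaks, against 7128 in the olanzapine list). In the cluster of 1173 kb on chromosome 12 that holds Cyp3a18, Cyp3a2 and Cyp3a23/3a1, the olanzapine library had 3 peaks, 2 exonic and 1 intronic. The clozapine library had 13, of which 4 were exonic, 7 intronic and 2 intergenic, and they were 170 to 580 bp long. Cyp3a2 had 1 intronic peak in the olanzapine library, from 11191900 to 11192262 (fold 3.75, -log10 p 5.85), and 7 intronic peaks and 1 exonic peak in the clozapine library. The olanzapine peak also carried the name Atp5j2, and of the intronic clozapine peaks 1 also carried the name Bud31 and 2 the name Smurf1. The strongest of the 8 ran from 11029191 to 11029362 (fold 5.73, -log10 p 11.4), and the exonic one from 11666211 to 11666380 (fold 3.78, -log10 p 7.02). Cyp3a23/3a1 had exonic olanzapine peaks from 11082491 to 11082686 (fold 5.10, -log10 p 6.40) and from 11732589 to 11733044 (fold 5.30, -log10 p 6.82). Its 3 exonic clozapine peaks were 170 to 183 bp long, from 11054013 (fold 3.75, -log10 p 6.61), 11061025 (fold 4.43, -log10 p 8.48) and 11704062 (fold 4.38, -log10 p 7.85). Cyp3a18 was named by 1 intergenic clozapine peak from 10591747 to 10591919 (fold 5.69, -log10 p 11.3). Further along the chromosome, Cyp3a9 had an exonic peak from 19102409 to 19102578 (fold 3.07, -log10 p 5.52) and an intergenic one (fold 3.79) in the clozapine library alone, and Cyp3a62 had intergenic peaks only, 1 in the olanzapine library against 2 in the clozapine library.

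The peaks named for Cyp3a2 lay up to 946 kb apart, and those named for Cyp3a23/3a1 up to 711 kb apart, while the peaks of both names alternated along the same stretch. The names Cyp2c7 and Cyp4a3 spread over 1019 and 220 kb. These spans count intergenic peaks too, which lay up to 322 kb from the gene for Cyp2c7 and 31.3 kb for Cyp3a23/3a1. Without them the peaks of Cyp2c7 ran from 147424511 to 148118647 and those of Cyp3a23/3a1 from 11054013 to 11733044. The span of such a name exceeds a single gene, the authors kept uniquely mapped reads without mismatches, and these genes have near-identical copies, so which copy a peak belongs to is uncertain.

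Of the 19 genes of family 4 and the Cyp2j subfamily, which hydroxylate or epoxidise fatty acids and eicosanoids, 8 had a gene-end or exonic peak in the olanzapine library (42.1%) against 2 in the clozapine library (10.5%), none in both. Over all genes the olanzapine list had one at 22.7%, the clozapine list at 14.4% and both at 5.72%, so the libraries stand in the same order over all genes. Over families 1, 2 and 3 the counts were 13 of 42 (31.0%) and 10 of 42 (23.8%), with 5 in both, and the Cyp2j genes stand in both lists. Cyp4a1 and Cyp4a3 are fatty acid omega-hydroxylases that PPAR alpha ligands induce in rodents. The exonic peak of Cyp4a3 in the olanzapine library had the highest -log10 p of the olanzapine Cyp peaks but not the highest fold, from 134484083 to 134484777 on chromosome 5 (695 bp, fold 4.80, -log10 p 9.72, a -log10 p above 96.6% of the list), and that of Cyp4a1 ran from 134492974 to 134493493 (fold 3.73, -log10 p 4.53). In the clozapine library Cyp4a3 had 3 intronic peaks of 170 bp (fold 3.53 to 3.85), Cyp4x1 1 intronic peak (fold 4.92) and Cyp4b1 1 exonic peak of 225 bp (fold 4.32, -log10 p 8.26). Cyp4a1 was not named there.

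The Cyp4f cluster on chromosome 7 holds leukotriene and fatty acid hydroxylases over 764 kb. The olanzapine library had 7 peaks in it, of which 4 were exonic, 1 upstream and 2 intergenic, and the clozapine library had 3, each intergenic. Cyp4f6 had the highest fold of them, an exonic peak of 265 bp from 15199158 to 15199422 (fold 5.75, -log10 p 7.99). Cyp4f40 had an exonic peak of 311 bp from 14879658 to 14879968 (fold 5.12, -log10 p 6.95), and Cyp4f4 an exonic peak of 785 bp (fold 4.14) and an intergenic one (fold 4.08). Cyp4f1 had an exonic peak of 831 bp (fold 3.72) and, 718 bp before the gene by the authors' annotation, an upstream peak of 246 bp (fold 3.70, -log10 p 6.55). Cyp4f17, Cyp4f5, Cyp4f40 and Cyp4f4 were named by the 3 intergenic clozapine peaks, the strongest between Cyp4f4 and Zfp799 from 15061260 to 15061431 (fold 5.72, -log10 p 11.4). Cyp4f18, a leukotriene hydroxylase known from mouse neutrophils, lies on chromosome 16 and had an intergenic olanzapine peak from 19559726 to 19560362 (637 bp, fold 5.93, -log10 p 8.21). Its clozapine peaks were an exonic one of 170 bp (fold 2.99), an intronic one (fold 2.90) and an intergenic one (fold 4.09). Cyp4v3 had an exonic, an intronic and an intergenic peak in the olanzapine library (fold 4.14, 4.43 and 4.88) and an intergenic one in the clozapine library (fold 3.93). Cyp2j3, an arachidonic acid epoxygenase, had an exonic olanzapine peak of 1912 bp (fold 4.58, -log10 p 5.75), and its relative Cyp2j4 had 2 intergenic clozapine peaks, the stronger from 119456180 to 119456351 (fold 5.71, -log10 p 11.2). Cyp2u1, a fatty acid hydroxylase, had an exonic olanzapine peak of 267 bp (fold 3.89).

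**Figure D4:**
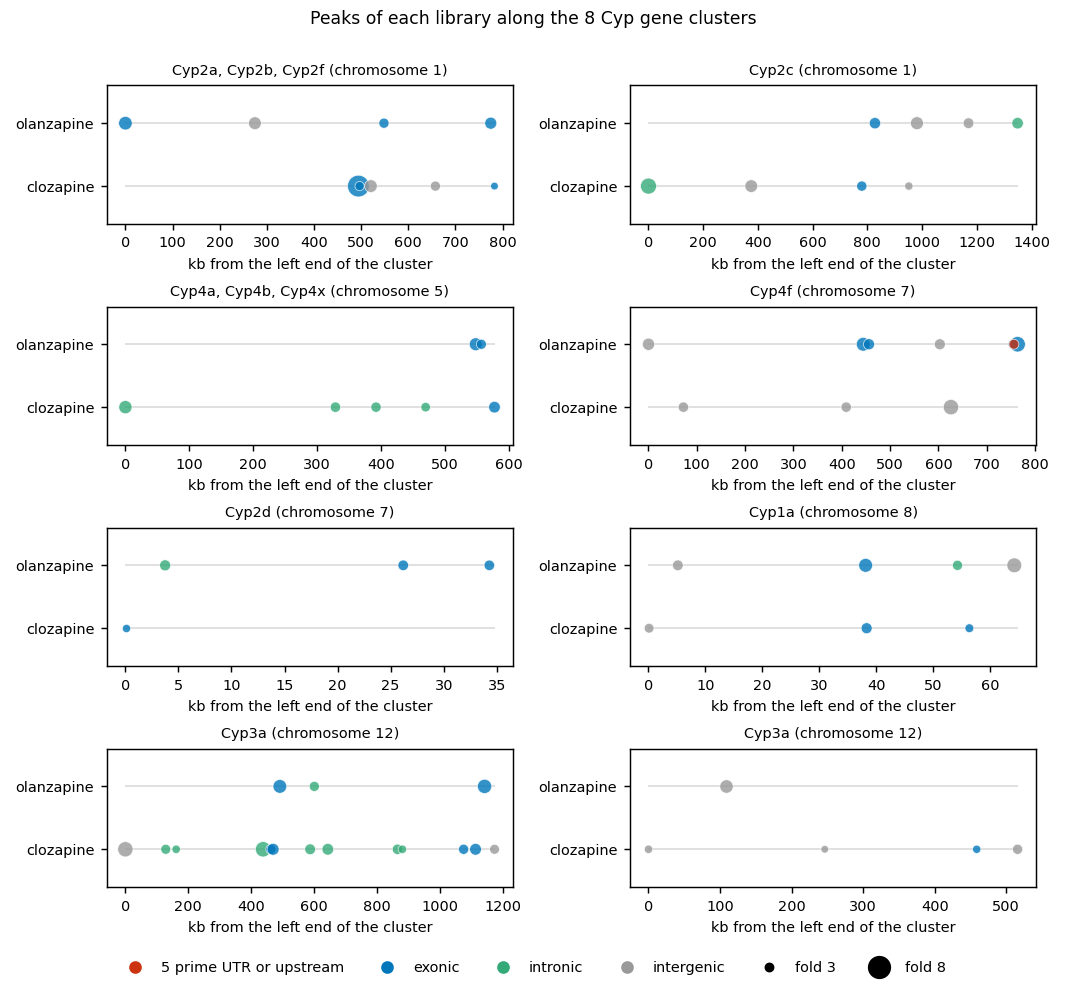
Position of each peak (kb from the left end of the cluster) in the 8 Cyp gene clusters, olanzapine above clozapine, coloured by class, with the area of a point growing with fold enrichment; a cluster is a run of Cyp peaks with gaps of at most 1 Mb that names at least 2 Cyp genes. The Cyp4f cluster shows 7 olanzapine and 3 clozapine peaks, and the larger Cyp3a cluster 3 olanzapine and 13 clozapine peaks, from a list of 7128 olanzapine and one of 19449 clozapine peaks.

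Among the 6 P450s of bile acid and sterol metabolism, 3 had a gene-end or exonic peak in the olanzapine library (22.7% of all genes had one) against 1 in the clozapine library (14.4% of all genes). Cyp27a1, the mitochondrial sterol hydroxylase, had one in both, at different parts of the gene. Its olanzapine peak ran from 81968467 to 81969937 on chromosome 9 (1471 bp, fold 3.89, -log10 p 4.97) and its clozapine peak from 81995465 to 81996297 (833 bp, fold 3.07, -log10 p 5.00). An intergenic peak between Stk36 and Cyp27a1 was present in both libraries too, from 81925502 to 81925910 in the olanzapine library (fold 5.59, -log10 p 7.42) and from 81941902 to 81942071 in the clozapine library (fold 3.39, -log10 p 6.19). Cyp8b1, needed for cholic acid, had an exonic olanzapine peak of 2535 bp from 130547262 to 130549796 on chromosome 8 (fold 3.82, -log10 p 4.95). An intergenic peak beyond its start was present in each library, of 244 bp from 130555531 in the olanzapine library (fold 4.70, -log10 p 6.09) and of 855 bp from 130568981 in the clozapine library (fold 3.81, -log10 p 7.14). Cyp39a1, an oxysterol hydroxylase, had an exonic peak of 1234 bp (fold 4.42) and an intronic one (fold 4.21) in the olanzapine library and an intergenic peak in the clozapine library (fold 3.13). Cyp7b1, another oxysterol hydroxylase, was named by 2 intergenic clozapine peaks, from 103252784 to 103252954 on chromosome 2 (fold 4.72, -log10 p 8.56) and from 103872003 to 103872629 (fold 3.69, -log10 p 6.55), which lay 382 and 1001 kb from the gene. Cyp46a1, the cholesterol hydroxylase of brain, had intergenic peaks only, 1 in the olanzapine library against 3 in the clozapine library. Cyp7a1, the rate-limiting enzyme of bile acid synthesis, was named by no peak of either library.

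Of 5 vitamin-metabolising P450s, 2 had a gene-end or exonic peak in the olanzapine library (22.7% of all genes had one) against 0 in the clozapine library (14.4% of all genes). Cyp2r1, the vitamin D hydroxylase of liver, had the only 5' UTR peak of any member, from 184105992 to 184106191 on chromosome 1 (200 bp, fold 5.27, -log10 p 8.00). Cyp27b1, which activates vitamin D in the kidney, had an exonic peak of 228 bp (fold 4.97) and an intergenic one (fold 3.76) in the olanzapine library. The retinoic acid hydroxylases Cyp26a1 and Cyp26b1 were named in the clozapine library alone and by intergenic peaks, 2 and 3 of them, the strongest from 256399217 to 256399387 near Cyp26a1 (fold 4.79, -log10 p 9.27), with the other Cyp26a1 peak from 256453592 to 256453761 (fold 3.44, -log10 p 6.29).

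The 7 P450s of steroid hormone synthesis, which act in adrenal gland and gonads, had 0 gene-end or exonic peaks in either library, beside the same shares of all genes. Cyp19a1 (aromatase), Cyp17a1 and Cyp11b2 (aldosterone synthase) were named by intergenic clozapine peaks only, 4, 1 and 1 of them. One of these, between Elmod1 and Cyp19a1 on chromosome 8 from 58641690 to 58641862, was the second of the clozapine Cyp peaks by fold and by -log10 p (173 bp, fold 6.65, -log10 p 13.6) and lay 103 kb from Cyp19a1. Cyp20a1, whose substrate is not known, had an intronic olanzapine peak of 683 bp (fold 4.16) and 1 intergenic peak in each library.

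The distance of a peak from the start of its gene could be measured where another peak beside the gene gave the gene's edge in the authors' annotation. Of 8 exonic olanzapine Cyp peaks with a placed start, 5 lay within 1 kb of it (62.5%, 30.6 to 86.3), beside 91.1% of 705 exonic olanzapine peaks of other genes. The peak of Cyp27a1 covered the start. Those of Cyp3a23/3a1, Cyp2a1, Cyp4f1 and Cyp8b1 began 58, 124, 163 and 592 bp into the gene, and those of Cyp27b1, Cyp2f4 and Cyp4f40 began 1.31, 2.41 and 13.7 kb into it. The intronic peak of Cyp20a1 began 284 bp into the gene. Of 4 exonic clozapine Cyp peaks, 0 lay within 1 kb of the start (up to 49.0%), beside 9.38% of 1119 of other genes, and they lay 10.3 kb (Cyp2f4), 11.9 kb (Cyp3a9), 26.9 kb (Cyp27a1) and 28.9 kb (Cyp3a23/3a1) into the gene. For the 3 genes placed in both libraries, Cyp27a1, Cyp3a23/3a1 and Cyp2f4, the measured olanzapine peak was nearer to the start than the measured clozapine peak. Other exonic peaks of Cyp3a23/3a1 in both libraries lay more than 200 kb from the start used and were left out. Exonic peaks of other genes differed between the libraries in the same way.

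**Figure D5:**
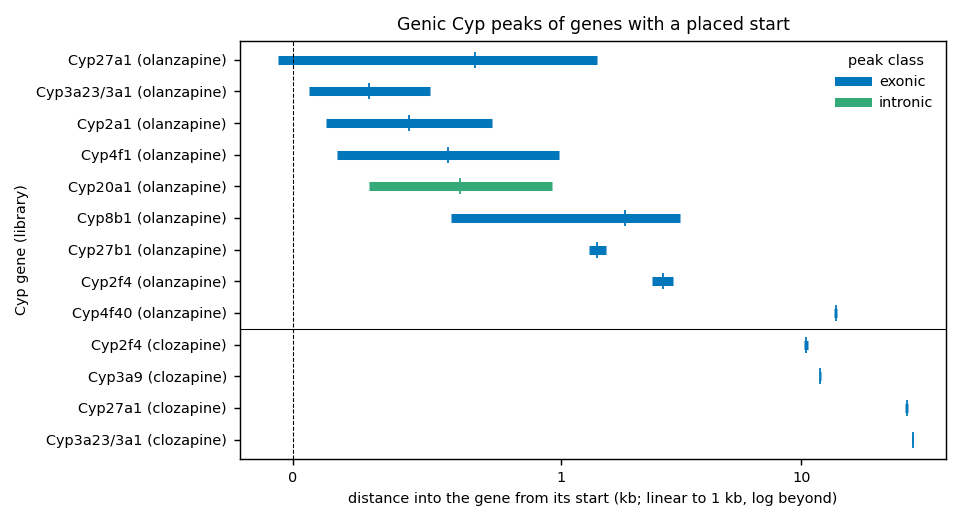
Extent of each exonic or intronic Cyp peak whose gene has a placed start (kb into the gene, linear up to 1 kb and logarithmic beyond), olanzapine above clozapine; a tick marks the middle of each peak. The olanzapine peaks begin between the start and 13.7 kb, and the 4 clozapine peaks between 10.3 and 28.9 kb.

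Apart from the Cyp1a2 pair, no Cyp peaks of the libraries overlapped. By a shared base, 1 of 51 olanzapine Cyp peaks (1.96%) met a clozapine peak, beside 2.34% of the whole olanzapine list, and 1 of 71 clozapine Cyp peaks (1.41%) met an olanzapine peak, beside 0.864%. Within 10 kb of a peak of the other library lay 8 olanzapine and 10 clozapine Cyp peaks, mainly at Cyp1a1, Cyp1a2, Cyp2e1, Cyp2d4 and Cyp2f4. The peak of the other library need not name a Cyp gene, and at clozapine peaks of Cyp3a2 and Cyp39a1 it did not. The share of the whole lists within this distance was not computed, so these counts cannot be set against that of all peaks.

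The authors' KEGG tables list input genes by pathway, and every Cyp gene they hold had a peak outside the intergenic class here. They held 23 Cyp genes for the olanzapine library and 15 for the clozapine library. As a yardstick, 26.7% of the 18539 protein-coding genes carried a non-intergenic olanzapine peak, and 28.2% a non-intergenic clozapine peak. In the bile acid pathway the input was 9 of 16 genes, 3 of them Cyp, in the olanzapine library and 4 of 16, 1 of them Cyp, in the clozapine library. In arachidonic acid metabolism it was 20 of 81 with 11 Cyp genes in the olanzapine library, against 21 of 81 with 5 in the clozapine library. For xenobiotics the olanzapine input was 21 of 70 and the clozapine input 20 of 70, with the same 4 Cyp genes in each, Cyp1a1, Cyp1a2, Cyp2e1 and Cyp2f4. In the olanzapine library the input was 19 of 83 for retinol metabolism (9 Cyp), 8 of 41 for linoleic acid metabolism (7 Cyp), 20 of 81 for steroid hormone biosynthesis (11 Cyp) and 21 of 71 for drug metabolism (2 Cyp). For the same pathways the clozapine input was 21 (9 Cyp), 13 (7 Cyp), 14 (9 Cyp) and 18 (2 Cyp). Input shares of the bile acid pathway were 56.25% for olanzapine and 25% for clozapine. Those of the remaining pathways ran from 17.3% to 31.7%, on either side of the yardstick. The libraries were furthest apart in the share of the bile acid pathway and in the Cyp genes of arachidonic acid metabolism, and no difference was tested.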

How the data were processed

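The members and gene lists were chosen with earlier results of these data known. The authors used BWA and the build Rnor_6.0, and carried on with reads that mapped to 1 place and had no mismatch. The read layout is not settled by the study's methods, and the peak caller, its threshold, its control and the annotation version are not given in the sources used here. For each peak the deposited lists give a position, a length, a class, gene names, a fold enrichment as a ratio, and both p and q as -log10 values. The authors' KEGG and GO tables give counts of input and background genes, which were used for KEGG, and p-values, which were not.

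Gene names were split at semicolons and matched to a names table of assembly GRCr8 (11839 of 12100, 97.8%), which gave the 18539 protein-coding genes behind each background. Promoter sequences are RefSeq's on the same assembly. Gene edges came from the distances that intergenic peaks carry (98.5% of 4980 edges seen more than 1 time had a single value). Strand came from RefSeq, and edges were used where the neighbour lay on the same side (94.9% of 4743 pairs). Upstream peaks with a single gene name also gave starts, as for Cyp4f1, and the check of the side was not applied to them. Only genes beside a peak of these kinds have an edge or a start. Peaks more than 200 kb from a start were left out of distances, a limit chosen after seeing the data. Every member is named, and full values go to members with a gene-end or exonic peak in both libraries, the 10 highest by -log10 p in each and 21 fixed names. Among the alternatives were stricter q (-log10 of 5 or more), fold (5 or more) and length (over 200 bp), equal list lengths and other overlaps. On 500 simulated peaks the overlap step recovered 100% of the planted overlaps. Wilson intervals (95%) cover counting only. The tools were matplotlib 3.10.9, numpy 2.4.6, scipy 1.17.1, pandas 2.3.3 and Python 3.11.15.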

Additional observations from a re-analysis of the deposited data

How the results depend on the processing

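Of 75 alternative values, 50 stayed near the reported value (counts within 1.5 times, shares and medians within their 95% interval) and 25 moved, in each case where the alternative leaves fewer peaks or joins more. With a -log10 q of at least 5, a gene-end or exonic peak was present at 1 Cyp gene in the olanzapine library against 2 in the clozapine library, any peak but intergenic at 1 and 4, in both libraries at 0, with 0 overlapping peaks and a median olanzapine length of 941 bp. With a fold of at least 5 these counts were 6 and 2, 6 and 4, 0 and 0, and the exonic share was 60% and 40%. With peaks longer than 200 bp the clozapine library had 6 and 7 genes and a median length of 391 bp, 3 genes were in both and 0 peaks overlapped. With an equal number of strongest peaks the clozapine library had 4 and 8 genes, 2 were in both and 0 peaks overlapped. With peaks within 1 kb counted as shared, 2 olanzapine Cyp peaks met a clozapine peak. The shares of all genes and of all peaks were not computed at these settings. These values therefore describe the Cyp genes and peaks alone and cannot be set against the whole lists. Whether depth limits the counts was not tested, since the lists give no reads per peak. Peaks on the chromosome of the names table and a distance of 2 kb from the start were chosen after seeing the data and moved no value past its limits. No paired analysis was possible because each drug has 1 library and no test was run.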

Other observations

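Genes that serve the P450s also carried peaks, from lists chosen with earlier results known. Of 8 electron donors, 4 had a gene-end or exonic peak in the olanzapine library against 4 in the clozapine library. Por, the reductase that feeds all microsomal P450s, had an intronic olanzapine peak of 2090 bp (fold 4.35, -log10 p 7.72) and an exonic clozapine peak of 321 bp (fold 3.70, -log10 p 6.86). Of 12 genes of heme synthesis and breakdown, 8 had one in the olanzapine library (66.7%), among them Alas1, the rate-limiting enzyme of heme synthesis, and 1 in the clozapine library (8.33%), Alas1 itself. Of 23 receptors and their partners that control P450 genes, 15 had one in the olanzapine library (65.2%) against 5 in the clozapine library (21.7%), with Foxa1 and Foxa2 among those in both. Nr0b2, the repressor that acts on bile acid synthesis, had an exonic olanzapine peak of 2248 bp (fold 6.50, -log10 p 10.3). Of 38 other phase I and II enzymes, 15 had one in the olanzapine library (39.5%) against 13 in the clozapine library (34.2%). Over all protein-coding genes the share was 22.7% in the olanzapine list, beside 14.4% in the clozapine list, and no difference was tested.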
